A study of Mus musculus with 4 samples.

Results

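The genes described here encode the machinery that copies DNA in S phase, from the loading of the replicative helicase to the supply of nucleotides and the assembly of new chromatin. The list held 38 genes, and a gene was measured where the array's annotation gave it a probe set with exactly 1 gene symbol. That left 37 members of 22180 genes named in this way, with the probe set of the highest mean taken where a gene had several. The remaining gene, Rfc4, was read only by a probe set that it shares with Eif4a2 and is given separately. The rule names genes by their function.

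Populations of CD4 T cells and thymocytes were taken from mice of 8 weeks of age with a C57BL/6 background, and their RNA was hybridised to 4 Affymetrix arrays, 1 for each population. Natural Th1 cells (nTh1) were CD4+CD62L+CXCR3+ thymocytes of CIITAtg mice, whose name stands for a transgene of the MHC class II regulator CIITA, with a promoter that the labels do not give. Classic Th1 cells (cTh1) were made in culture over 5 days from CD4+CD62Lhi cells of wild-type spleen, on anti-CD3/CD28 beads. The medium held 2 ng/ml of IL-12, 50 U/ml of IL-2 and anti-IL-4. TT naive cells were CD4+CD62L+CXCR3- thymocytes of CIITAtg mice, and naive cells were CD4+CD62Lhi cells taken directly from wild-type spleen. The labels do not say whether animals were pooled. With 1 array a population there is no spread between samples, so no test was made and every difference below describes these arrays. In a mixed sample, fewer cycling cells and less RNA per cycling cell cannot be told apart.

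Replication starts at origins, where the origin recognition complex, CDC6 and CDT1 load the ring of MCM proteins before S phase begins. CDC45 and the GINS complex then turn this ring into a moving helicase, and the polymerases, the PCNA clamp and its loader follow the fork. Many of these genes are transcribed through E2F factors when a cell leaves rest. Resting naive T cells keep them low, and T cells that divide after stimulation, or as thymic precursors, carry them at high level.

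The array labelled naive went against its label. Zbtb16, the PLZF gene, active in innate-like T cells, was at 9.88 in nTh1, 7.31 in cTh1, 9.36 in TT naive and 12.23 on the array labelled naive. Tbx21, the gene of the Th1 factor T-bet, was at 7.92 in nTh1, 11.25 in cTh1, 7.11 in TT naive and 9.81 on the array labelled naive. Cxcr3, the receptor used for the thymic sorts, was at 9.91 in nTh1, 10.53 in cTh1, 7.76 in TT naive and 9.80 on the array labelled naive. Its level thus separated both thymic sorts and was high on the array labelled naive. The MHC class II gene H2-Aa was at 12.66 in nTh1, 10.73 in cTh1, 12.29 in TT naive and 12.66 on the array labelled naive, so that cTh1, also labelled wild-type, was lowest. Ciita, the gene of the regulator CIITA, did not follow H2-Aa. It was at 7.72 in nTh1, 8.00 in cTh1, 7.28 in TT naive and 7.59 on the array labelled naive, highest in cTh1. Eif2s3y, a Y-linked gene, was at 5.16 in nTh1, 4.97 in cTh1, 8.55 in TT naive and 8.61 on the array labelled naive. By this gene the sex of the mice differed, with nTh1 and cTh1 on one side and TT naive and the array labelled naive on the other. Cd4 lay between 12.33 and 12.72 on all 4 arrays. Results with and without that array are therefore both given.

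Promoter sequences are shown because the members share a known type of regulator. Of the 37 measured members, 32 had an entry in the RefSeq promoter table of GRCm38.p6, which runs from 250 bases before to 50 after each annotated start site, with 37 promoters in all. They were searched on both strands for the E2F words TTTCCCGC, TTTGGCGC, TTTCGCGC and TTTGCCGC, whose matches may overlap each other. At least 1 match stood in 14 of 37 member promoters (37.8%), against 2.26% of all 32851 promoters in the table and 3.91% of the 13024 promoters of genes above the level filter described below. The 20 matches began between position -185 and position 39, and TTTGCCGC gave none. For CCAAT, the word bound by NF-Y, the shares were 54.1% of member promoters, 37.4% of all promoters and 37% of those of genes above the filter. For TTTGAA and TTCGAA, the words of the CHR element known from genes of mitosis, they were 16.2% and 19.2%, with 13.9% among promoters of genes above the level filter, so that the members lay between both shares. The promoters below belong to the 4 members with the widest range over the arrays among those with an E2F match, and to Pcna, the member with the narrowest range. Capitals mark the E2F matches, and each sequence reads 5′ to 3′ along the gene. Cdc6 lies at chr11:98907901-98908200, plus strand, Pole2 at chr12:69228141-69228440, minus strand, Lig1 at chr7:13278576-13278875, plus strand, Mcm3 at chr1:20820263-20820562, minus strand and Pcna at chr2:132253131-132253430, minus strand. For Lig1 the promoter that holds the match is shown, of 3 in the table.
Cdc6: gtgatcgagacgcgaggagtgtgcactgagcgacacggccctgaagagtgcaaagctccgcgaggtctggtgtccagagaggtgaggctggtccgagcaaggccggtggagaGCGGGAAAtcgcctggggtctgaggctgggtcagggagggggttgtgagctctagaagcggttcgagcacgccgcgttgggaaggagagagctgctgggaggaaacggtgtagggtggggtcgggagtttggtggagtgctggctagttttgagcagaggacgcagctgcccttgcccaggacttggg
Pole2: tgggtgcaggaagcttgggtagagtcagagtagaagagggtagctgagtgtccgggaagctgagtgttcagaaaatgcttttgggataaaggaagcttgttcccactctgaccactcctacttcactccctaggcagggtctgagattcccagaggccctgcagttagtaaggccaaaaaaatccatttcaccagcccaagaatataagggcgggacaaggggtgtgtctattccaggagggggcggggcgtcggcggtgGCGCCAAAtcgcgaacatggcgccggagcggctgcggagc
Lig1: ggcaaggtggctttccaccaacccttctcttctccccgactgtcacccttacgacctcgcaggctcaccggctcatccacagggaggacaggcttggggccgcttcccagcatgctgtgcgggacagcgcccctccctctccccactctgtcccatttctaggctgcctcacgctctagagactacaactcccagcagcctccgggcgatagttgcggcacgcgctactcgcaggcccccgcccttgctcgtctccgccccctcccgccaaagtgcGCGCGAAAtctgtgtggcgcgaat
Mcm3: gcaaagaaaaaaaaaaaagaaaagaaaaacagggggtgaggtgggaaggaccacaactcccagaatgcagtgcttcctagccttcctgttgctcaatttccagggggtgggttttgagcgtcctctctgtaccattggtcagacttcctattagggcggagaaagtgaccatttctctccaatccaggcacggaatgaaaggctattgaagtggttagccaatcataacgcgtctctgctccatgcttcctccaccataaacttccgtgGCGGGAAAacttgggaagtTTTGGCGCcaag
Pcna: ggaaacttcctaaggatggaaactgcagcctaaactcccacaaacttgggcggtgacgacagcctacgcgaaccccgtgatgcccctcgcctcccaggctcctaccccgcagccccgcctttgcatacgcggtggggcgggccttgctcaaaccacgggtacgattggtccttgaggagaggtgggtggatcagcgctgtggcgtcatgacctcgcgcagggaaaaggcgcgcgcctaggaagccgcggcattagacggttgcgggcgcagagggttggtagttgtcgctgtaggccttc

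The Mcm3 promoter holds 2 matches just after the start site and the Pcna promoter holds none of these words. A match is a run of letters and does not show a bound factor. The range of a member over the 4 arrays had a median of 0.72 on the log2 scale among the 14 genes with a match and 0.98 among the 18 genes without one.

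**Figure D1:**
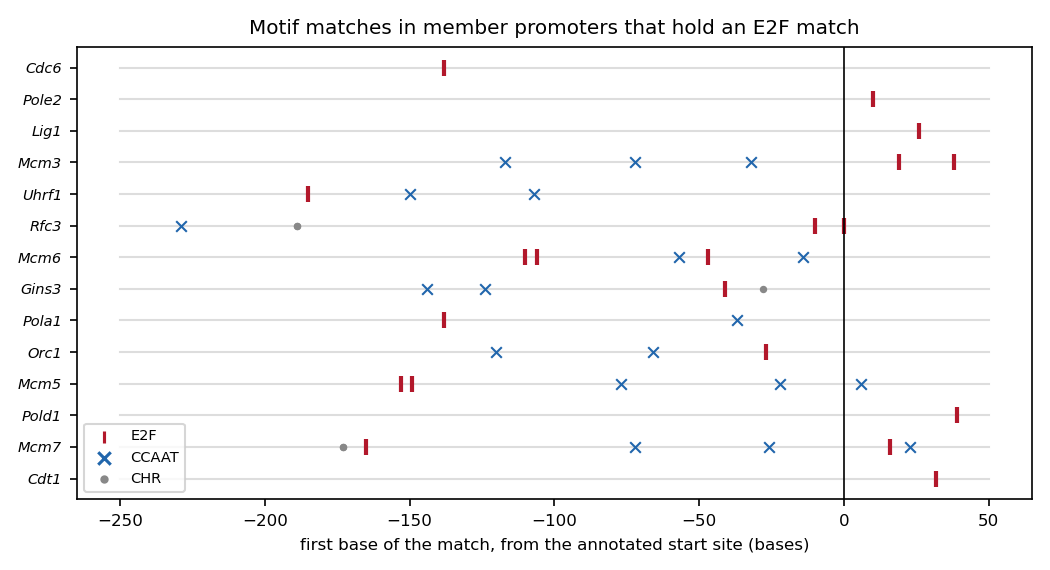
Positions of motif matches in the 14 member promoters with an E2F match, in bases from the annotated start site at 0 (negative before it). Rows run from the widest to the narrowest range of the gene over the 4 arrays. Red bars are E2F matches, blue crosses CCAAT and grey points CHR, each drawn at the first base of the match.

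Replication genes were high on the array labelled naive, next in cTh1, and lower on both thymic arrays. The member median was 8.70 in nTh1, 9.17 in cTh1, 8.86 in TT naive and 9.60 on the array labelled naive, in log2 units of the deposited values. Of 37 members, 31 were highest on the array labelled naive, 4 in cTh1, 2 in TT naive and none in nTh1. Among the 13238 genes with at least 1 array at or above the level filter, which is the median of all values (6.61), the shares were 29.2% on the array labelled naive, 34.2% in cTh1, 16.1% in TT naive and 20.5% in nTh1. The lowest array was nTh1 for 21 members, TT naive for 11, cTh1 for 5 and the array labelled naive for none, beside 34.5%, 18.7%, 29.5% and 17.3% of genes in the same order. For the 31 members, the lead of the array labelled naive over the next array was between 0.01 and 0.72, with a median of 0.34, and the next array was cTh1 for 25 of them. In 11 of the 31 it was larger than 0.402, the SD between probe sets of the same gene in the comparison of cTh1 with the array labelled naive. That value was used for all 31, although the next array was nTh1 for 3 and TT naive for 3. The share of all genes with such a lead is not given here, so the count cannot be set against it. The SD between probe sets was the only error the file allows. It covers differences between probes and transcript forms, not between animals or sorts. Among the other 3 arrays, 29 members were highest in cTh1, against 45.3% of genes above the filter, and 21 were lowest in nTh1, against 39.4%.

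**Figure D2:**
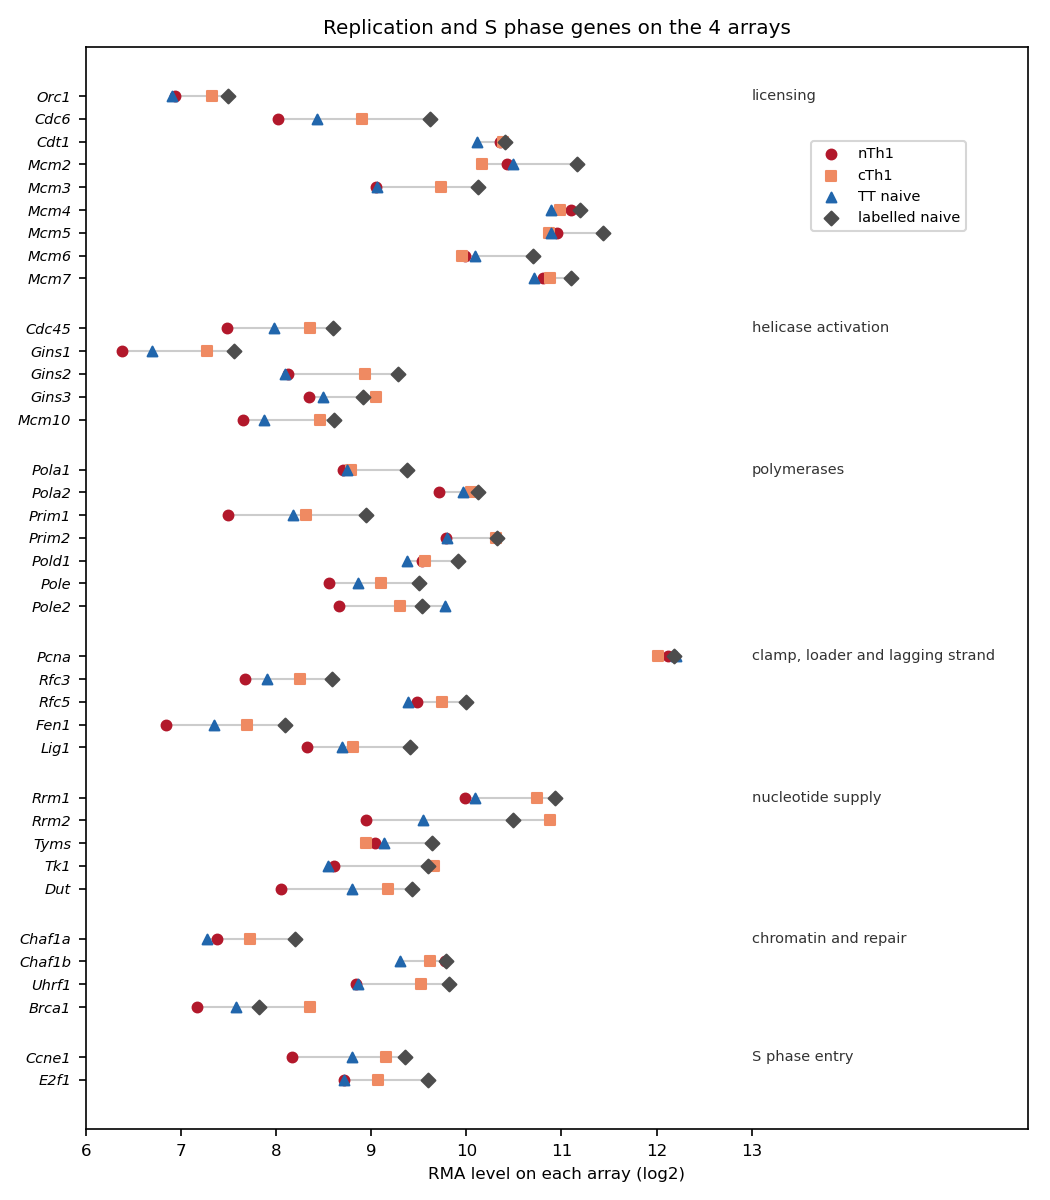
Log2 level of each measured member on the 4 arrays, grouped by role. Each point is 1 array (red circle nTh1, orange square cTh1, blue triangle TT naive, grey diamond labelled naive), and the grey line spans the range. The diamond is the rightmost point in 31 of 37 rows.

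The proteins that load the helicase come first. Cdc6, which brings the MCM ring to the origin, varied most among them and was at 8.02 in nTh1, 8.90 in cTh1, 8.44 in TT naive and 9.62 on the array labelled naive. Its levels fell into the common order, with nTh1 lowest and the array labelled naive highest. Cdt1, its partner in loading, was at 10.35 in nTh1, 10.39 in cTh1, 10.12 in TT naive and 10.41 on the array labelled naive. Those 4 values lay within 0.29 of each other. Orc1, the subunit of the origin recognition complex that comes and goes with the cell cycle, was at 6.93 in nTh1, 7.33 in cTh1, 6.91 in TT naive and 7.49 on the array labelled naive, so that both thymic arrays were alike and low.

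The 6 subunits of the MCM ring did not share 1 pattern. Mcm3 was at 9.05 in nTh1, 9.74 in cTh1, 9.06 in TT naive and 10.12 on the array labelled naive, at -0.68 for nTh1 minus cTh1 and 0.67 for cTh1 minus TT naive. Mcm2 was at 10.42 in nTh1, 10.16 in cTh1, 10.49 in TT naive and 11.16 on the array labelled naive. Here cTh1 was the lowest array and lay just short of 2-fold below the array labelled naive. Mcm5 was at 10.96 in nTh1, 10.87 in cTh1, 10.89 in TT naive and 11.44 on the array labelled naive. Mcm6 was at 9.98 in nTh1, 9.96 in cTh1, 10.10 in TT naive and 10.70 on the array labelled naive. In both, nTh1, cTh1 and TT naive lay close together and the array labelled naive stood above them. Mcm4 and Mcm7 spanned only 0.31 and 0.39 over the 4 arrays. The median difference of the ring subunits was 0.03 for nTh1 minus TT naive, 0.06 for nTh1 minus cTh1 and 0.04 for cTh1 minus TT naive. Against the array labelled naive it was -0.60 for nTh1, -0.48 for cTh1 and -0.58 for TT naive, with all 6 subunits below it each time.

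The factors that turn the loaded ring into a helicase differed more between the populations. Cdc45, which travels with the ring, was at 7.48 in nTh1, 8.35 in cTh1, 7.98 in TT naive and 8.60 on the array labelled naive. Gins1, a subunit of the GINS complex, was at 6.38 in nTh1, 7.27 in cTh1, 6.69 in TT naive and 7.56 on the array labelled naive. Gins2, another, was at 8.12 in nTh1, 8.93 in cTh1, 8.09 in TT naive and 9.28 on the array labelled naive. In all 3 genes both thymic arrays lay below cTh1. Gins3 was at 8.34 in nTh1, 9.05 in cTh1, 8.49 in TT naive and 8.91 on the array labelled naive and was one of the 4 members highest in cTh1. Mcm10, needed for the ring to start moving, was at 7.65 in nTh1, 8.46 in cTh1, 7.87 in TT naive and 8.61 on the array labelled naive. All 5 genes were at least 1.5-fold lower in nTh1 than in cTh1, against 17.7% of genes above the filter. They lay at -0.71 to -0.89 on the log2 scale. Their median of -0.81 stands beside 0.06 for the MCM ring and -0.08 for all genes above the filter.

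Among the polymerases, Prim1, the catalytic subunit of primase, showed the largest spread, with a range of 1.45 against 0.53 for Prim2. Prim1 was at 7.50 in nTh1, 8.31 in cTh1, 8.18 in TT naive and 8.95 on the array labelled naive. Prim2, the regulatory subunit, was at 9.79 in nTh1, 10.31 in cTh1, 9.80 in TT naive and 10.32 on the array labelled naive, without the step between the thymic arrays that Prim1 had. Pola1, the catalytic subunit of polymerase alpha, was at 8.70 in nTh1, 8.78 in cTh1, 8.75 in TT naive and 9.37 on the array labelled naive. Its value was nearly level on 3 arrays and higher on the array labelled naive. Pola2, its accessory subunit, spanned 0.40, and Pold1, the catalytic subunit of the lagging strand polymerase delta, 0.54. Pole, the catalytic subunit of the leading strand polymerase epsilon, was at 8.56 in nTh1, 9.10 in cTh1, 8.86 in TT naive and 9.50 on the array labelled naive. Pole2, the second subunit of that enzyme, was at 8.66 in nTh1, 9.31 in cTh1, 9.77 in TT naive and 9.53 on the array labelled naive. Pole2 was thus highest in TT naive cells, and its difference between the thymic arrays, nTh1 minus TT naive, was -1.11 against -0.31 for Pole. Its promoter, shown above, has 1 E2F match just after the start site.

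Pcna, the sliding clamp that holds polymerases on DNA, was the flattest member. It was at 12.12 in nTh1, 12.02 in cTh1, 12.20 in TT naive and 12.18 on the array labelled naive, a range of 0.19. The loader subunits varied more, with Rfc3 at 7.67 in nTh1, 8.25 in cTh1, 7.90 in TT naive and 8.59 on the array labelled naive. Rfc5 had a range of 0.60. The probe set shared by Rfc4 and Eif4a2, a gene of translation, was at 9.20 in nTh1, 9.87 in cTh1, 9.41 in TT naive and 9.98 on the array labelled naive, and which gene it reads cannot be told apart. Fen1, which trims Okazaki fragments, was at 6.85 in nTh1, 7.69 in cTh1, 7.35 in TT naive and 8.09 on the array labelled naive. Lig1, the ligase that joins them, was at 8.32 in nTh1, 8.81 in cTh1, 8.69 in TT naive and 9.41 on the array labelled naive. Both followed the common order, from nTh1 at the low end to the array labelled naive.

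Nucleotide supply held the member with the widest range. Rrm2, the small subunit of ribonucleotide reductase and the one that limits its activity in S phase, was at 8.94 in nTh1, 10.87 in cTh1, 9.54 in TT naive and 10.49 on the array labelled naive. It was highest in cTh1, 3.82-fold above nTh1 and 2.51-fold above TT naive. Rrm1, the large subunit, was at 9.98 in nTh1, 10.74 in cTh1, 10.09 in TT naive and 10.93 on the array labelled naive. Tk1, the thymidine kinase of the salvage pathway, was at 8.61 in nTh1, 9.66 in cTh1, 8.55 in TT naive and 9.59 on the array labelled naive. Its values formed a high and a low pair, cTh1 and the array labelled naive above both thymic arrays. Dut, which removes dUTP, was at 8.05 in nTh1, 9.17 in cTh1, 8.80 in TT naive and 9.43 on the array labelled naive, with nTh1 well below the other 3 arrays. Tyms, the thymidylate synthase, was at 9.04 in nTh1, 8.95 in cTh1, 9.13 in TT naive and 9.64 on the array labelled naive, and cTh1 was its lowest array. A second probe set of Rrm2 and of Dut lay below the level filter on all 4 arrays, and so did the second one of Pole. The second probe set of Fen1 was nearly flat, at 6.67 in nTh1, 6.63 in cTh1, 6.54 in TT naive and 6.83 on the array labelled naive. With the mean of both probe sets, Fen1 was at -0.70 for nTh1 minus the array labelled naive, against -1.24 for the one used, and Dut at -0.61, against -1.37, so neither was 2-fold lower.

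Genes of chromatin assembly and repair split too. Chaf1a, the large subunit of the histone chaperone CAF-1, was at 7.38 in nTh1, 7.73 in cTh1, 7.27 in TT naive and 8.20 on the array labelled naive. Chaf1b, the middle subunit, was at 9.78 in nTh1, 9.62 in cTh1, 9.31 in TT naive and 9.79 on the array labelled naive, and was the member with the largest positive difference between the thymic arrays, 0.47 for nTh1 minus TT naive. Uhrf1, which guides maintenance of DNA methylation behind the fork, was at 8.84 in nTh1, 9.53 in cTh1, 8.86 in TT naive and 9.81 on the array labelled naive. Brca1, the repair gene that protects stalled forks, was at 7.17 in nTh1, 8.36 in cTh1, 7.58 in TT naive and 7.82 on the array labelled naive, highest in cTh1. Of the S phase entry genes, Ccne1, the cyclin E1 gene, was at 8.17 in nTh1, 9.16 in cTh1, 8.80 in TT naive and 9.36 on the array labelled naive. E2f1, one of the factors behind the motif above, was at 8.71 in nTh1, 9.07 in cTh1, 8.71 in TT naive and 9.60 on the array labelled naive. The thymic arrays had nearly the same E2f1 level and differed by 0.64 in Ccne1, with nTh1 lower.

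The comparison of nTh1 with TT naive sets CXCR3+ against CXCR3- thymocytes, and replication genes differed little there. Sex differed as well by the Y-linked gene Eif2s3y, and its part cannot be told apart from that of the sort. Pole2 was the only member at least 2-fold lower in nTh1 (of 37, against 1.09% of genes), and none was at least 2-fold higher (against 1.41%). At 1.5-fold, 5 members were lower, namely Pole2, Dut, Prim1, Ccne1 and Rrm2, against 4.54% of genes, and none was higher, against 3.88%. The member median was -0.10, beside -0.05 over the 12435 genes above the filter. Below 0 were 25 members, beside 7131 of those genes. The SD between probe sets was 0.257, and 13 of 37 members lay beyond it, beside 4388 of 12435 genes, which is nearly the same share. Markers of other cells moved with this comparison. All 8 measured immature thymocyte markers were above 0, 6 of them above the level filter, at a median of 0.70, with Dntt, the terminal transferase, at 2.01. They spanned 6.19 to 10.51 in nTh1, against 5.38 to 9.38 in TT naive. Rag2 was below the level filter on all 4 arrays and Cd8a below it in nTh1 and TT naive. The myeloid markers spanned 5.78 to 9.83 in nTh1, against 4.10 to 8.89 in TT naive, and 8 of 12 were at least 2-fold higher in nTh1. The 9 B cell markers were all above 0, at a median of 0.93, but only 6 reached the level filter in nTh1 and 2 in TT naive. None of 8 T cell markers was 2-fold apart. Their part in the replication values was not tested.

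The series title sets nTh1 beside cTh1, and here replication genes were lower in nTh1. Rrm2 was at -1.93, Brca1 at -1.19, Dut at -1.12 and Tk1 at -1.05, all at least 2-fold lower in nTh1. These were 4 of 37 members, against 8.3% of genes, and no member was at least 2-fold higher, against 3.46%. The share at 2-fold was close to that of all genes. The calls of Dut and Tk1 depended on the processing. With the mean of both probe sets Dut was at -0.44, and with differences centred on the median Tk1 was at -0.97. Under quantile normalization Dut was at -0.96 and Tk1 at -0.90. Rrm2 and Brca1 stayed at least 2-fold lower under these settings. At 1.5-fold, 17 members were lower, against 17.7% of genes, and none was higher, against 10.1%. The median of -0.54 stands beside -0.08 for the 12841 genes above the filter and a probe set SD of 0.481. Below 0 were 30 members, beside 7333 of those genes. By role the median was -0.04 for licensing, -0.81 for helicase activation, -0.52 for polymerases, -0.49 for clamp, loader and lagging strand genes, and -1.05 for nucleotide supply. Tissue, genotype and culture differ together between these arrays and cannot be told apart. Markers of other cells moved with this comparison in both directions. B cell markers lay between 6.45 and 8.46 in nTh1, against 7.51 and 10.57 in cTh1, with 7 of 9 at least 2-fold lower in nTh1. Cd8a was at 6.42 in nTh1, against 10.31 in cTh1. Myeloid markers had a median of 1.02, with levels of 5.78 to 9.83 in nTh1, against 4.45 to 9.10 in cTh1, and 5 of 12 were at least 2-fold higher in nTh1. Immature thymocyte markers had a median of 1.05, with 3 of 8 at least 2-fold higher in nTh1. The 2 below 0 were Cd8a at -3.88 and Cd8b1 at -0.998, just short of 2-fold lower. Their part in the replication values was not tested.

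Set against TT naive, cTh1 had 2 members at least 2-fold higher, Rrm2 at 1.33 and Tk1 at 1.11, against 7.24% of genes, and none at least 2-fold lower, against 3.02%. At 1.5-fold, 7 were higher, against 14.7%, and none lower, against 9.66%. The 7 were Rrm2, Tk1, Gins2, Brca1, Mcm3, Uhrf1 and Rrm1. The median was 0.35, beside 0.03 for all genes and a probe set SD of 0.440. Beyond that SD lay 14 of 37 members, beside 4331 of 12728 genes, a similar share. By the labels, tissue, genotype and culture differ together between these arrays, and by Eif2s3y sex did too. These cannot be told apart. B cell markers were at 7.51 to 10.57 in cTh1, against 5.27 to 7.41 in TT naive and 4.99 to 7.23 on the array labelled naive, and 8 of 9 were at least 2-fold higher in cTh1 than on either. Cd8a was at 10.31 in cTh1, 6.22 in TT naive and 6.31 on the array labelled naive. Cd8b1 was at 10.75, 9.38 and 8.45 in the same order. Of the 8 immature thymocyte markers, which include both, 4 were higher and 4 lower in cTh1 than on either array. The part of these markers in the replication values was not tested.

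The Th1 culture started from wild-type spleen cells, and its array was set against the one labelled naive. No member was at least 2-fold higher in cTh1 (against 5.13% of genes) or at least 2-fold lower (against 3.35%), with Mcm2 just short of 2-fold lower. At 1.5-fold, 7 were lower, namely Mcm2, Mcm6, Cdc6, Tyms, Prim1, Lig1 and Pola1, against 9.8% of genes, and none was higher, against 11.4%. The median was -0.26, beside -0.02 for all genes. Of 37 members, 33 were below 0, beside 6709 of 12835 genes. The SD between probe sets was 0.402, and the member median lay within it. Beyond it lay 12 of 37 members, beside 4404 of 12835 genes, a similar share. By Eif2s3y, sex differed between these arrays too and cannot be told apart from the culture. The 4 above 0 were Brca1 at 0.54, Rrm2 at 0.38, Gins3 at 0.14 and Tk1 at 0.06.

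Both thymic arrays lay below the array labelled naive. In nTh1, all 37 members were lower, beside 7705 of 12754 genes. At least 2-fold lower were 11, against 4.43% of genes, with none at least 2-fold higher, against 1.93%. The 11 were Cdc6 at -1.60, Rrm2, Prim1, Dut, Fen1, Ccne1, Gins1, Gins2, Cdc45, Lig1 and Mcm3, the last at -1.07. At 1.5-fold, 25 were lower, against 13%, and none higher, against 6.13%. The median was -0.87, beside -0.10 for all genes and a probe set SD of 0.368. In TT naive, Gins2 at -1.19, Cdc6 at -1.19, Mcm3 at -1.06 and Tk1 at -1.04 were at least 2-fold lower. They were 4 of 37, against 2.59% of genes, with none higher, against 0.795%. At 1.5-fold, 22 were lower, against 7.34%, and none higher, against 3.4%, with a median of -0.62 beside -0.06 for all genes and a probe set SD of 0.304. Markers of other cells differed here too. For nTh1 minus the array labelled naive, immature thymocyte markers had a median of 1.14, with 4 of 8 at least 2-fold higher, and 4 of 12 myeloid markers were at least 2-fold higher. All 9 B cell markers were above 0 there, at a median of 0.76, with 2 at least 2-fold higher. Of the 9, 6 reached the level filter in nTh1 and 3 on the array labelled naive. For TT naive minus that array, myeloid markers had a median of -0.87, with 5 of 12 at least 2-fold lower and 1 higher. They spanned 5.78 to 9.83 in nTh1, 4.10 to 8.89 in TT naive and 4.23 to 9.57 on the array labelled naive. Their part in the replication values was not tested. By the labels, tissue, genotype and sort differ together between each thymic array and the array labelled naive. By Eif2s3y, sex differed as well for nTh1. These cannot be told apart. Both comparisons share an array with each other and with those above, so they are not separate evidence. What each of them stands for depends on the label of the array labelled naive.

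**Figure D3:**
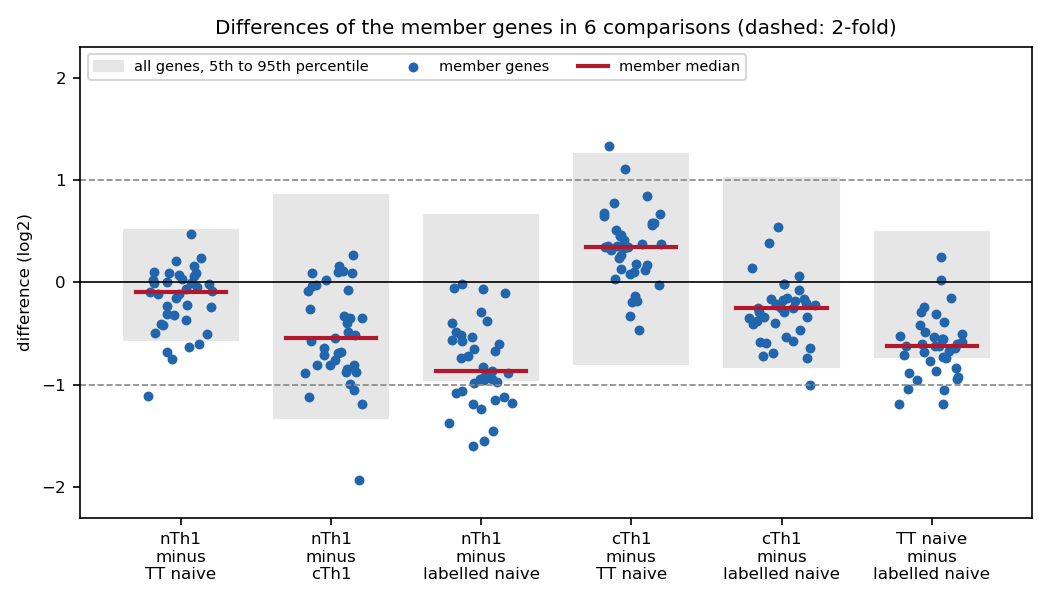
Log2 differences of the 37 members (blue points) in the 6 comparisons, with their median (red line) and the range from the 5th to the 95th percentile of all genes above the level filter (grey box). Dashed lines mark 2-fold. The points lie lowest for nTh1 minus labelled naive, where all 37 are below 0.

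Genes of mitosis, a list kept apart from the members, had another profile. Aurkb, the kinase of chromosome segregation, was at 9.17 in nTh1, 11.45 in cTh1, 9.34 in TT naive and 10.42 on the array labelled naive. Ccnb2, a mitotic cyclin, was at 9.53 in nTh1, 11.80 in cTh1, 10.00 in TT naive and 11.11 on the array labelled naive. Birc5, the partner of Aurkb, and Cdc20, which starts anaphase, were also highest in cTh1 and second on the array labelled naive. For cTh1 minus the array labelled naive, all 19 measured mitosis genes were above 0, at a median of 0.47. By contrast, 33 of 37 replication members were below 0, at a median of -0.26. Of 12835 genes above the filter, 6123 were above 0 and 6709 below. The SD between probe sets was 0.402 in this comparison, and the member median lay within it. Beyond it in either direction lay 12 of 19 mitosis genes, 12 of 37 members and 4404 of the 12835 genes. What the contrast stands for depends on the label of the array labelled naive. For nTh1 minus cTh1 the mitosis median was -1.84 with 19 of 19 at least 2-fold lower, beside -0.54 and 4 of 37 for the members. The share of all genes passing that fold in this direction was 8.3%, and the members' share was close to it. For cTh1 minus TT naive the medians were 1.69 for mitosis and 0.35 for the members. For nTh1 minus TT naive they were -0.16 and -0.10. No test of the difference between both lists was made.

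**Figure D4:**
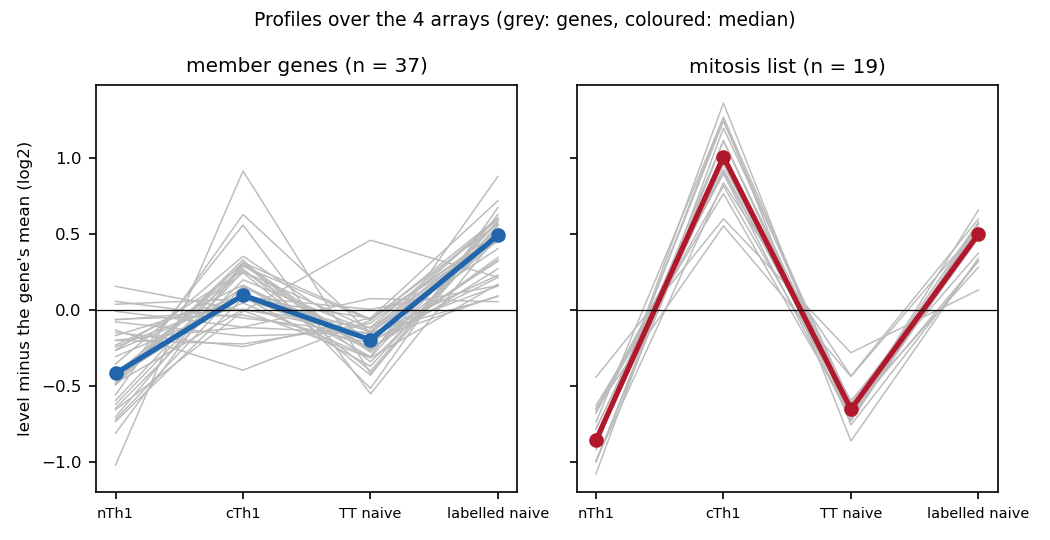
Level of each gene minus its own mean over the 4 arrays (log2) for the 37 members and the 19 mitosis genes, with the median in colour. The member median peaks on the array labelled naive at 0.49 and the mitosis median in cTh1 at 1.00.

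Other genes of the same pathway, taken by function and outside the members, numbered 73 with a measured value. For nTh1 minus cTh1 their median was -0.28, with 9 at least 2-fold lower and 2 higher, against 8.3% and 3.46% of genes. For cTh1 minus the array labelled naive it was -0.16, with 6 lower and 2 higher, against 3.35% and 5.13% of genes. The origin genes beside Orc1 had no common direction. Orc4 was at 10.32 in nTh1, 9.21 in cTh1, 9.97 in TT naive and 9.85 on the array labelled naive, and Orc2 was at 0.61 for nTh1 minus cTh1, both lowest in cTh1. Orc6 was closer to the members, at -0.40 for nTh1 minus cTh1 and -0.47 for cTh1 minus the array labelled naive. Mcm9, a relative of the ring subunits, was at 1.03 for nTh1 minus cTh1. Ticrr, which recruits CDC45, was at 8.12 in nTh1, 9.24 in cTh1, 8.09 in TT naive and 9.38 on the array labelled naive, and so repeated the high and low pairs of Tk1. Tipin, a fork protection gene, was at -0.84 for nTh1 minus cTh1. The checkpoint kinase gene Chek1 and Atad5, which unloads the clamp, were higher on the array labelled naive than elsewhere, at -1.09 and -1.22 for cTh1 minus that array.

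Among other polymerase subunits, Pold4, the smallest subunit of polymerase delta, had the widest range. It was at 9.49 in nTh1, 11.24 in cTh1, 9.59 in TT naive and 9.80 on the array labelled naive, higher in cTh1 than on any other array, while Pold1 spanned 0.54. Top1, Rnaseh2a and Rfc2 had ranges of 0.85, 0.82 and 0.79. Samhd1, which degrades dNTPs, was at 10.97 in nTh1, 12.69 in cTh1, 11.86 in TT naive and 11.55 on the array labelled naive, so nTh1 was its lowest array, as for Rrm2, which serves to make dNTPs. Shmt1, Nme1 and Dctd, which feed thymidylate and nucleotide synthesis, were lowest in cTh1, at -1.34, -1.31 and -1.27 for cTh1 minus the array labelled naive, and Tyms shared that direction. The histone chaperones Nasp and Asf1a were also lowest in cTh1, at -1.06 and -0.83, but Asf1b was at -0.07, and Hells, a chromatin remodeller, at -0.49.

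Cyclin and E2F genes outside the members followed the mitosis pattern in part. Ccna2, the cyclin of S phase and mitosis, was at 10.04 in nTh1, 11.64 in cTh1, 10.11 in TT naive and 11.01 on the array labelled naive. E2f2 was at 7.85 in nTh1, 9.49 in cTh1, 8.70 in TT naive and 9.23 on the array labelled naive, and E2f8, a repressor that acts late in S phase, at 8.26 in nTh1, 9.70 in cTh1, 8.70 in TT naive and 9.57 on the array labelled naive. These 3 genes were highest in cTh1, whereas E2f1 and E2f3, at -0.53 and -0.66 for cTh1 minus the array labelled naive, were not. Homologous recombination genes had 7 of 8 measured members above 0 in the same comparison, as Brca1 had, with a median of 0.12. Of 12835 genes, 6123 were above 0 there. Bard1, the partner of Brca1, was at 7.42 in nTh1, 8.67 in cTh1, 7.86 in TT naive and 8.57 on the array labelled naive. Rad54l was at -1.40 for nTh1 minus cTh1, Blm at -0.99 and Exo1 at -0.62. The CDK inhibitor gene Cdkn1a, which blocks S phase entry, was at 7.39 in nTh1, 12.13 in cTh1, 6.63 in TT naive and 7.77 on the array labelled naive, and Cdkn2c, another inhibitor, at 7.54 in nTh1, 9.61 in cTh1, 8.32 in TT naive and 9.27 on the array labelled naive. Both were highest in cTh1. Cdkn2d and Tob1 were at -1.33 and -0.55 for nTh1 minus cTh1.

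**Figure D5:**
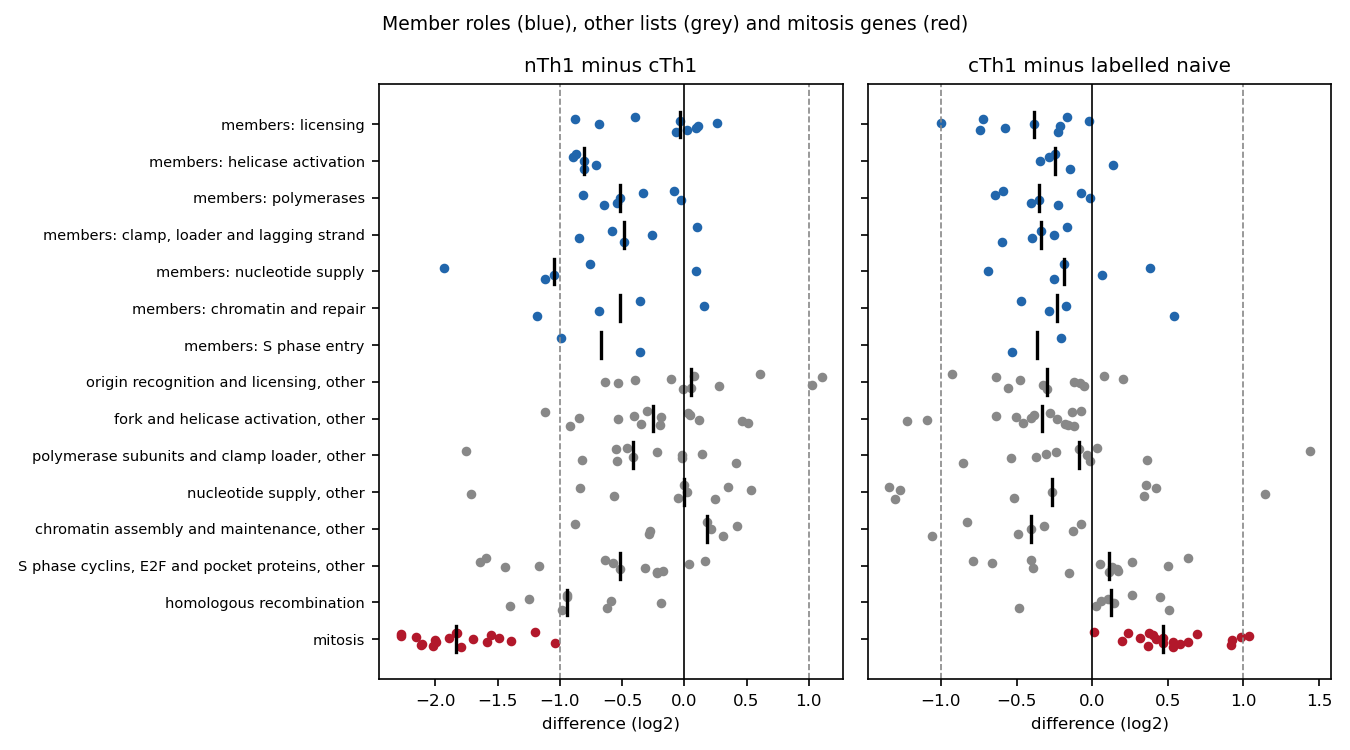
Log2 differences of single genes for nTh1 minus cTh1 and for cTh1 minus the array labelled naive, with 1 row for each role of the members (blue), each further list (grey) and the mitosis genes (red). Black bars are medians and dashed lines mark 2-fold. In the comparison of cTh1 with the array labelled naive, mitosis genes lie right of 0 and most members left of it.

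Outside the list, the genes whose 4 values, centred on their own mean, lay nearest to the member median profile were mostly not replication genes. Over 4 arrays the 12 nearest were Mrpl20, Tmem14c, Lancl2, Nsmf, Vps29, Myl6, Carmil1, Orc6, Naa20, Btbd35f1, Sdf2l1 and Lhpp, at Euclidean distances from 0.062 to 0.112 in log2 units. Orc6, a subunit of the origin recognition complex, was the only gene among them from the replication lists. Of the members, Rfc3 and Pole lay nearest to the profile, at 0.054 and 0.062, and Rrm2 and Pole2 farthest, at 1.04 and 0.756.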

How the data were processed

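Per the submitters' processing notes, the deposited log2 values were made by the authors with RMA in Affymetrix Expression Console 1.3.1, which corrects background, brings probes to a common distribution and summarises each probe set. The sources used here name no genome build. Per the labels, 300 ng of total RNA was labelled for each array. The table held 41345 probe sets, with array medians between 6.52 and 6.70, and 0 columns stayed unmatched. Probe sets were named from the platform annotation: 23521 had 1 gene symbol, 1814 several and 16010 none. Of 22180 genes, 1082 had several probe sets, 4 members among them, and the one with the highest mean was used. Some list genes were not analysed here.

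A gene entered a comparison when either array reached the median of all values (6.61), which all 37 members did. Differences are the first array minus the second, counted at 2-fold. With 1 array a group no p-value was computed, and the number of arrays limits the precision. The SD between probe sets was pooled over genes with several probe sets above the filter. Further genes are named as the 4 with the widest range in each list, and the 12 nearest profiles without predicted genes. Zbtb16, Tbx21, Cxcr3, Cd4, H2-Aa, Ciita, Eif2s3y and Rag2 were named as checks. The members and lists were chosen with earlier results of these data known. Counting was checked on simulated data. Alternatives were the filter, the scaling, the probe set rule and the fold, and 2 were added after seeing the data. Python 3.11.15, numpy 2.4.6, pandas 2.3.3, statsmodels 0.14.6 and matplotlib 3.10.9 were used.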

Additional observations from a re-analysis of the deposited data

Results flagged for a closer look

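Brca1 differed in direction between 2 comparisons. It was at -0.41 for nTh1 minus TT naive and at 0.54 for cTh1 minus the array labelled naive, both beyond the SD between probe sets, and the first less the second was -0.95 on the log2 scale. With 1 array a population this difference was not tested, and it depends on the array labelled naive, whose markers go against its label. No other member had opposite differences that were both beyond that SD.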

How the results depend on the processing

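No paired analysis was possible because each population had 1 array and the labels pair none of them. The member medians kept their sign under every alternative run, namely dropping the level filter, raising it to the 75th percentile, centring, quantile normalization of the named probe sets, removal of a loess trend, the mean of all probe sets and, added after seeing the data, the shared Rfc4 probe set. For nTh1 minus cTh1 they lay between -0.56 and -0.40, and for cTh1 minus the array labelled naive between -0.27 and -0.22. Counts at 2-fold moved with the threshold. At 1.5-fold the members lower in the first array numbered 5 for nTh1 minus TT naive, 17 for nTh1 minus cTh1, 25 for nTh1 minus the array labelled naive, 7 for cTh1 minus that array and 22 for TT naive minus it, and 7 were higher for cTh1 minus TT naive. At 3-fold these numbered 0, 1, 1, 0, 0 and 0. Under quantile normalization the lower members were 2 for nTh1 minus cTh1, 7 for nTh1 minus the array labelled naive and 1 for cTh1 minus it, and 2 members were highest in nTh1. With the mean of all probe sets 1 member was at least 2-fold higher for cTh1 minus TT naive, since Rrm2 was then at 0.86. The same setting moved 11 of 222 single differences by more than the SD between probe sets, all in Rrm2, Dut, Fen1 and Pole, and centring, loess and quantile normalization moved none of 222. Without the array labelled naive, a choice made after seeing the data, 29 members were highest in cTh1, 5 in TT naive and 3 in nTh1. The causes were not tested. Quantile normalization put the median of all genes at 0.04 for nTh1 minus cTh1, where it was -0.08 as deposited, and at 0.01 for nTh1 minus the array labelled naive, with member medians of -0.40 and -0.70. Relative to the median of all genes, which was at -0.10 for nTh1 minus the array labelled naive, the member median there was -0.77. Gins1 lay below the level filter in nTh1, so its difference there is less certain.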
